A study of Mus musculus with 8 samples.

Results

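The 4 wild-type libraries of an 8-library mouse RNA-seq series were described by the abundance of every transcript in peri-ovulatory granulosa cells, the somatic cells that surround the oocyte in the ovarian follicle. Members were chosen by the genotype label alone, so the 4 libraries labelled WT were taken and the 4 knockout libraries were not analysed here. The wild-type animals came from the PGR-A KO strain, a line made to lack the A isoform of the progesterone receptor. All animals, aged 21 to 27 days, were given 5 IU of eCG to drive follicle growth and, 46 h later, 5 IU of hCG in place of the luteinizing hormone surge, and were killed 8 h after that. A library holds the pooled cells of 2 to 3 mice. Its poly(A) RNA was sequenced paired-end with a stranded kit, and no untreated or earlier sample was used here. Each library is therefore a mean over animals, and the spread between the 4 pools does not give the spread between mice. Values are TPM, a share of transcripts corrected for transcript length and scaled to a fixed total, given in the order of WT replicates 1, 2, 3 and 4 unless said otherwise. The order of the replicates has no meaning.

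After the ovulatory signal, mural granulosa cells leave the cell cycle, change from oestrogen towards progesterone synthesis, secrete proteases and remodel the follicle wall until it ruptures. The progesterone receptor is induced for a short time in these cells and is needed for rupture, and several secreted and surface proteins, among them the protease Adamts1 and the chemokine receptor Cxcr4, are known to depend on it. Luteinizing granulosa cells are also rich in mitochondria, because the first step of steroid synthesis takes place at their inner membrane.

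WT replicates 1 and 2 stood apart from the other libraries, and each result below that rests on them is given with all 4 values. Across genes at 1 TPM or more in all 4 libraries, Pearson's r of log2(TPM + 1) ran from 0.979 for WT replicates 1 and 3 to 0.993 for WT replicates 3 and 4, a description across genes that are not independent. Between WT replicates 3 and 4, 445 of 13580 genes differed by over 1.5-fold, against 2161 between WT replicates 1 and 3. The leading principal component held 49.3% of the variance and placed WT replicate 1 at one end, and the next held 37.3% and placed WT replicate 2 at one end. No 2 libraries held identical values. The TPM of the libraries summed to 996069 to 996989. A TPM table does not hold sequencing depth, so counting error could not be computed for any value.

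All 5 markers of granulosa cells after the ovulatory signal were well above the 1 TPM floor in every library. The 15 measured oocyte markers also reached 1 TPM in every library, so passing this floor does not test the label. Ctsl, a lysosomal protease, measured 5887, 4489.7, 4249 and 4154 TPM, with a mean of 4695 ± 807 (SD, n = 4), and held place 14 among all genes. Star, which moves cholesterol into mitochondria, measured 1107, 802, 588 and 525 TPM, and Cyp11a1, which cuts the cholesterol side chain there, measured 855, 871, 524 and 521 TPM. Their means were 755 ± 263 and 693 ± 196 (SD, n = 4). WT replicates 1 and 2 were above WT replicates 3 and 4 for both genes.

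Adamts1, a secreted protease that cuts versican, measured 543, 366, 253 and 239 TPM with a mean of 350.1 ± 140.4 (SD, n = 4). Cxcr4, a chemokine receptor, measured 539, 271, 254 and 260.1 TPM with a mean of 331 ± 139 (SD, n = 4). WT replicate 1 was the highest library for Adamts1, Cxcr4, Ctsl and Star and WT replicate 2 for Cyp11a1. Leaving out WT replicate 1 lowered the mean of Cxcr4 to 262 TPM and that of Adamts1 to 286 TPM. Read in order of mean level, Ctsl stood above Star and Cyp11a1 above Adamts1 in 4 of 4 libraries. Star stood above Cyp11a1 in 3 libraries and Adamts1 above Cxcr4 in 2, so those neighbours did not differ beyond their spread. In GENCODE M21 on mm10 the genes lie at chr13:64359337-64370890 (Ctsl, minus strand), chr8:25806555-25815982 (Star, plus), chr9:58006411-58027023 (Cyp11a1, plus), chr16:85793827-85803113 (Adamts1, minus) and chr1:128588199-128592293 (Cxcr4, minus).

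Adamts1 and Cxcr4 each carry the letters TATAAA shortly upstream of the annotated start, which is shown because such starts were uncommon among the genes measured. The strands from 60 bases before to 20 bases after the start follow, from RefSeq on GRCm38.p6, with TATAAA in capitals. They lie at chr16:85803094-85803173 on the minus strand and chr1:128592280-128592359 on the minus strand.
Adamts1: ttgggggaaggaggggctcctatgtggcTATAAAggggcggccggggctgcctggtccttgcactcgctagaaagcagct
Cxcr4: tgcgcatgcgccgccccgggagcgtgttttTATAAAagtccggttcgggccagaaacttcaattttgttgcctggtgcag
The motif TATAAA was searched on the transcribed strand only, with its first base between -40 and -20 of the start. It was present in 2.55% of the 20424 promoters of protein-coding genes in the expression table. Among the 325 listed genes with a promoter in the RefSeq table, 21 held it, including Cyp19a1, Areg, Slco2a1, Sphk1 and Fos. A match is a description of these letters and not evidence of binding.

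A small number of genes held most of the transcript pool. The 10 most abundant genes held 22.2% ± 1.98 of TPM (SD, n = 4), with 20.5%, 24.2%, 20.5% and 23.7% in the libraries. The top 100 held 39.7% ± 1.71, the top 1000 held 66.8% ± 0.911 and the top 5000 held 89.9% ± 0.269. Between 211 and 278 genes sufficed for 50% of TPM in a library, and between 4899 and 5122 for 90%. With mitochondrially encoded genes left out and the rest rescaled, the top 10 held 6.39% ± 0.436 and between 598 and 635 genes held 50%. By level, 6 genes averaged 10000 TPM or more and held 18.7% of the total, 108 lay between 1000 and 10000 and held 22.5%, and 1231 lay between 100 and 1000 and held 29.5%. The 7701 genes between 10 and 100 TPM held 26.7%, and the 5595 between 1 and 10 TPM held 2.31%.

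**Figure D1:**
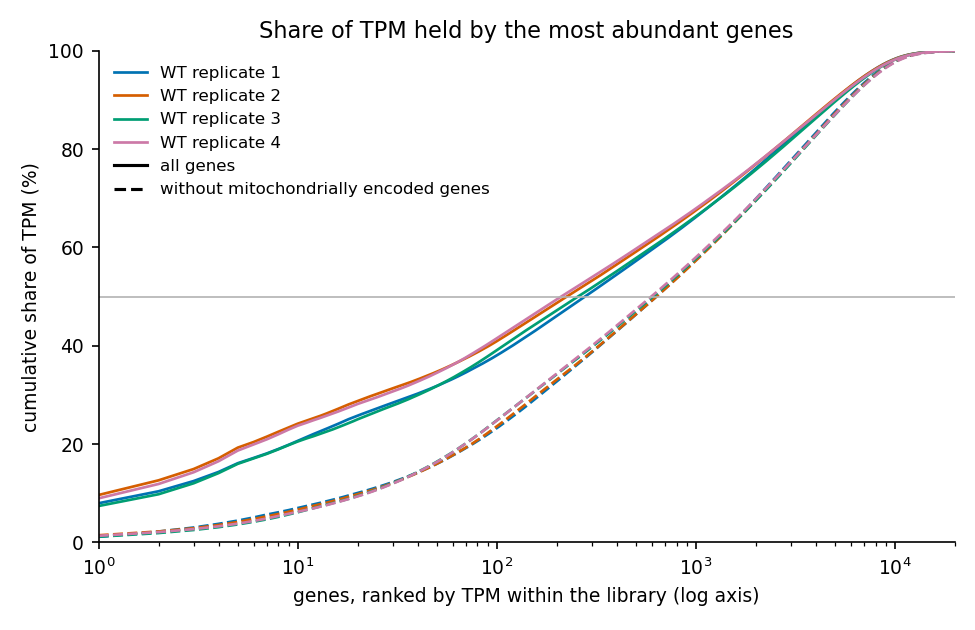
Cumulative share of TPM (vertical axis, percent) against the number of genes ranked by TPM within each library (horizontal log axis), 1 colour per library, solid for all genes and dashed without mitochondrially encoded genes. Solid curves cross 50% between 211 and 278 genes and dashed curves between 598 and 635.

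Transcripts of the mitochondrial genome formed the most abundant class. They held 20.9%, 24.4%, 20.9% and 24.1% of TPM in the 4 libraries, a mean of 22.6% ± 1.93 (SD, n = 4), and made up 9 of the 10 most abundant genes. WT replicates 2 and 4 were the high libraries. The leader, mt-Atp8, a subunit of the ATP synthase, measured 79419, 96227, 73843 and 89406 TPM. It is annotated at 204 bases, overlaps mt-Atp6 by 43 bases and is carried on the same mitochondrial messenger RNA. Its mean was 3.17 times that of mt-Atp6, which measured 26705 ± 3116 TPM (SD, n = 4). TPM divides by length, so short genes gain weight. What accounts for the level of mt-Atp8 above that of mt-Atp6 was not tested. With each gene's TPM multiplied by its annotated transcript length, mt-Atp8 held 1.56% in place of 8.50% and mt-Atp6 1.64% in place of 2.68%. The whole class then held 13.1% in place of 22.6%.

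The 3 mitochondrial subunits of cytochrome oxidase lay close together, with means of 22380.0 ± 1294 TPM for mt-Co1, 20772 ± 1716 for mt-Co2 and 19966 ± 1995 for mt-Co3 (SD, n = 4). The next to follow were mt-Nd4l at 11289.5 ± 783, mt-Cytb at 9749 ± 537, mt-Nd1 at 8613 ± 616 and mt-Nd4 at 7572 ± 312 TPM. These encode parts of complexes I and III. Lower still were mt-Nd3 at 5092 ± 258, mt-Nd2 at 4592 ± 231 and mt-Nd5 at 2786 ± 121 TPM. The one protein gene of the light strand, mt-Nd6, measured 64.6, 73.1, 115 and 101 TPM, and mt-Nd5 was 31.5 times as high. Both ribosomal RNAs were low in these poly(A) libraries, mt-Rnr1 at 256 ± 35.8 and mt-Rnr2 at 199 ± 26.8 TPM, and 19 of the 22 mitochondrial tRNA genes were listed at 0 in all 4 libraries. The other 3, mt-Ts1, mt-Tl1 and mt-Te, averaged 18.2, 2.30 and 1.71 TPM.

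Nuclear genes of the respiratory chain were far lower than their mitochondrial partners. The 101 genes of this class held 1.96% ± 0.0577 of TPM (SD, n = 4). Of them, 96 were at 1 TPM or more in all 4 libraries, against 56.8% of all protein-coding symbols. The median coefficient of variation (CV, the SD over the mean) of these 96 was 6.48%. By complex, the 17 nuclear ATP synthase genes had a median of 339 TPM per gene, with Atp5b highest at 1038. The 18 nuclear cytochrome oxidase genes, 14 of them at 1 TPM or more throughout, had a median of 326 TPM, led by Cox4i1 at 582. The medians were 214 TPM for the 9 genes of complex III, 125 for the 4 of succinate dehydrogenase and 118 for the 39 of complex I, of which 38 were at 1 TPM or more throughout. Genes below 1 TPM in all 4 libraries were Ndufb11b, Cox7b2, Cox8b and Cox8c.

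Cytosolic ribosomal proteins came next, with 8.44%, 9.13%, 11.004% and 10.8% of TPM, a mean of 9.84% ± 1.25 (SD, n = 4). Of 87 genes, 85 were at 1 TPM or more in all 4 libraries, against 56.8% of all protein-coding symbols. Rpl3l and Rpl10l were below 1 TPM in all 4. Over the 85, the quartiles of mean TPM were 771, 1144 and 1460, and 52 genes averaged 1000 TPM or more. Rpl41 led with 3335, 3272, 3901 and 4048 TPM, then Rpl23a with 2699, 2974, 3429 and 3451 and Rps27rt with 2272, 2885, 3016 and 3084. WT replicates 3 and 4 were above WT replicates 1 and 2 for all 3. The large subunit summed to 53608 ± 6649 TPM over 53 genes and the small subunit to 44391 ± 5789 over 34 (SD, n = 4), and both were lowest in WT replicate 1. WT replicate 1 was the lowest of the 4 libraries for 67 of the 85 genes, against 28.2% of all genes at 1 TPM or more in all 4. WT replicate 3 was the highest for 69 of the 85, against 32.8% of those genes, and WT replicate 4 for 14, against 12.5%.

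Ribosomal protein messenger RNAs are known to begin with a run of pyrimidines, the 5′ terminal oligopyrimidine tract, through which growth signals control their translation. Promoters of 4 abundant members are shown because of this start. The strands run from 60 bases before to 20 bases after the annotated start, from RefSeq on GRCm38.p6, with the letters CTTTC or CTTTT in capitals. Their places are chr7:141447591-141447670 (plus strand), chr11:114668520-114668599 (plus), chr4:86857348-86857427 (minus) and chr16:33056422-33056501 (plus).
Rplp2: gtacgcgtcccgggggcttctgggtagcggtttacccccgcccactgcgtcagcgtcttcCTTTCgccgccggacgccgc
Rpl38: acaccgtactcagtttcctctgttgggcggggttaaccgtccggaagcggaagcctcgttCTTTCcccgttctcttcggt
Rps6: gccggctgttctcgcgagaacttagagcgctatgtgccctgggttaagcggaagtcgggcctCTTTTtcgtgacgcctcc
Rpl35a: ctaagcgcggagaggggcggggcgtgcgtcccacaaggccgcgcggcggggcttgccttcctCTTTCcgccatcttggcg
In Rplp2 and Rpl38 the motif begins at base 1 of the transcript and in Rps6 and Rpl35a at base 3. The search covered the transcribed strand only, with the first base of CTTTC or CTTTT between -10 and +10. It found the letters in 20 of 78 ribosomal protein promoters (25.6%), against 4.77% of the 20424 promoters of protein-coding genes in the table. Without ribosomal proteins, the 40 promoters of protein-coding genes at 1000 TPM or more held them at 5.00%. The CpG ratio, the number of CG pairs over that expected from base content, was also high, with a median of 0.87 in ribosomal protein promoters and 0.59 over all 20424.

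Abundance and the CpG ratio of promoters rose together across genes up to 1000 TPM. The median CpG ratio was 0.18 for promoters of genes under 0.1 TPM, 0.34 from 0.1 to 1, 0.60 from 1 to 10, 0.78 from 10 to 100, 0.81 from 100 to 1000 and 0.87 at 1000 TPM or more. Without ribosomal proteins, the 40 promoters at 1000 TPM or more had a median of 0.75, below that of the band from 10 to 100 TPM. The share with TATAAA ran the other way at first, from 5.63% under 0.1 TPM to 0.883% between 10 and 100 TPM, and was 2.03% between 100 and 1000 and 1.19% at 1000 TPM or more. Of the top 100 protein-coding nuclear genes, 73 had a promoter in the RefSeq table. Among these 73, the 2 with TATAAA were Ppia, the cyclophilin A gene, and Sod1, the cytosolic superoxide dismutase. Both are printed as abundant housekeeping genes with this start, from chr11:6415807-6415886 and chr16:90220702-90220781, both on the plus strand.
Ppia: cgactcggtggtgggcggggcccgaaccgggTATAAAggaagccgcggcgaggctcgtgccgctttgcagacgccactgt
Sod1: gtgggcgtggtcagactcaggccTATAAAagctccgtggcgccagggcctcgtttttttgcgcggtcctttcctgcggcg
Ppia measured 1743, 1717, 1964 and 1961 TPM and Sod1 1076, 1027, 935 and 928 TPM, with CVs of 7.32% and 7.26%.

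Several of the most abundant entries are copies of other genes, and TPM cannot be assigned with certainty between them. Of 198 of the 200 most abundant genes that could be searched, 69 shared at least 50% of their transcript at 98% identity or more. Matches to all other genes were counted together for this share. These 69 held 19.03% of TPM. Gm29216, a nuclear pseudogene on chromosome 1 matching mt-Co1, was listed at 8983, 11000.5, 9191 and 10231 TPM, and Gm28438, matching mt-Nd3, at 1075, 1641, 1262 and 1747 TPM. Tpt1-ps3 was listed at 2326 TPM beside 4564 for Tpt1, which encodes a growth-related tumour protein. For several ribosomal protein genes, among them Rpl5, Rpl12, Rpl27a, Rpl10 and Rps23, a copy was listed above the parent in 4 of 4 libraries. The copy of Rpl5, Gm15500, averaged 1301 TPM and Rpl5 53.1. The copy of Rpl12, Gm10275, averaged 1229 TPM and Rpl12 70.7, and that of Rpl27a, Gm7536, 1812 beside 253. Summed with its copy, Rpl5 stood at 1354 ± 169 TPM (SD, n = 4), near the ribosomal protein median of 1144. Counting the pseudogenes among the 200 with the gene they match took the ribosomal protein share from 9.84% to 11.2%, an alternative chosen after the data were seen.

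**Figure D2:**
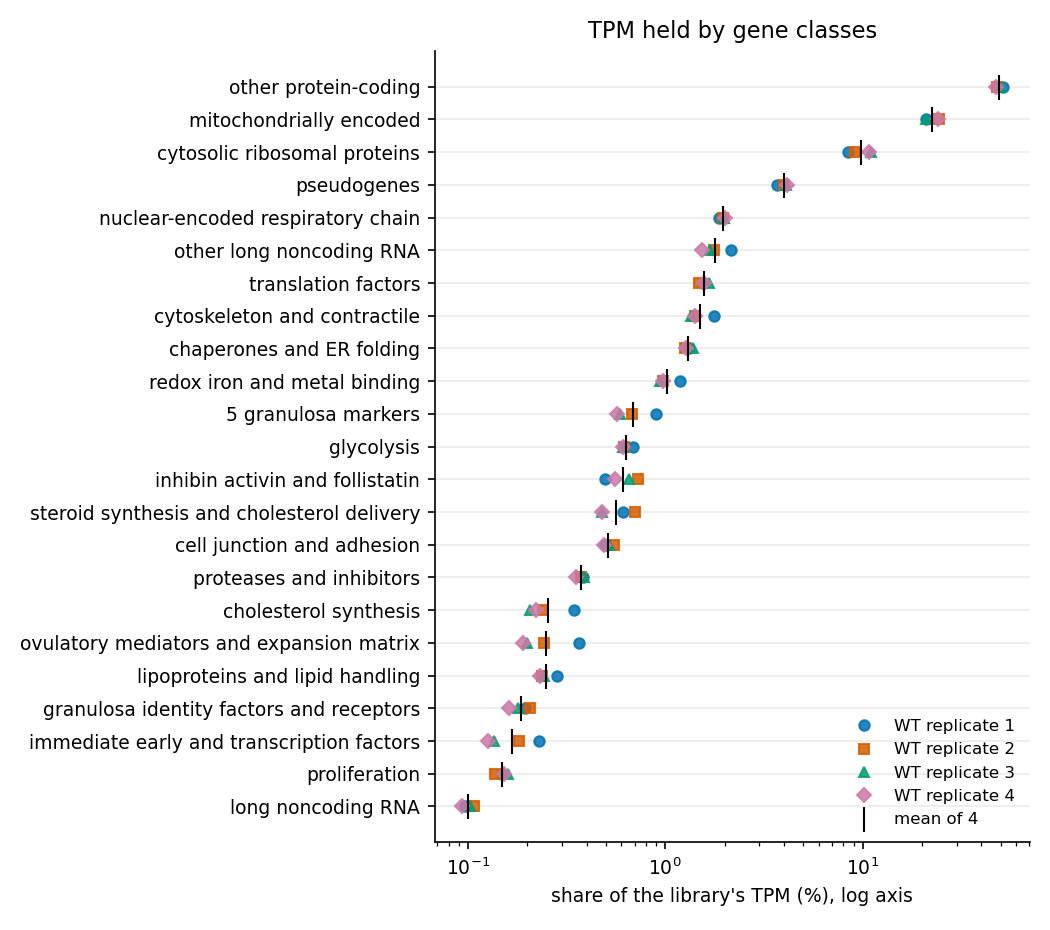
Share of each library's TPM (horizontal log axis, percent) held by 23 gene classes, with 1 symbol per library and a bar at the mean of 4. Each gene counts in 1 class, and the 5 granulosa markers form a class of their own. Mitochondrially encoded genes sit near 22.6% and ribosomal proteins near 9.84%, while the ovulatory and immediate early classes show WT replicate 1 to the right of the others.

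Among named nuclear genes other than ribosomal proteins, housekeeping and granulosa genes alternated at the top. Eef1a1, the translation elongation factor, measured 5231, 4925, 5872 and 5659.6 TPM and Ctsl came next. Tpt1 followed, and then Ephx2, the soluble epoxide hydrolase that breaks down fatty acid epoxides, with 6454, 4149, 3431 and 3872 TPM. WT replicate 1 was the high library for Ephx2, and its CV was 30.2%. Inha, the alpha subunit of inhibin, the granulosa hormone that lowers follicle-stimulating hormone, measured 3435, 4645, 4378 and 3796 TPM with a mean of 4063 ± 549 (SD, n = 4). Below it came Ybx1, an RNA-binding protein, at 2705, Gapdh at 2419, Tsc22d1 at 2341 and Hsd3b1 at 2305 TPM. Olfr1033, a gene named as an olfactory receptor on chromosome 2, measured 2275, 1379.6, 1381 and 1184 TPM. Of 1116 symbols of that family 13 were at 1 TPM or more in all 4 libraries, and the next highest averaged 24.0 TPM.

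The order of these genes was loose. Of the 29 pairs of neighbours among the 30 most abundant, 26 had means closer than the larger of their SDs, and only Tmsb10 above Fth1 kept its order in 4 of 4 libraries. Some of the 30 had a wide spread. The haemoglobin genes Hbb-bs and Hba-a2 had CVs of 74.7% and 73.5%. Gja1, the connexin of granulosa gap junctions, measured 881, 2209, 1866 and 1610.4 TPM and was lowest in WT replicate 1. Vcan, the matrix proteoglycan versican that Adamts1 cuts, measured 1845, 1118, 803 and 783 TPM and was highest in WT replicate 1. By contrast Tmsb10, a small actin-binding protein, ranged only from 1453 to 1495 TPM.

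**Figure D3:**
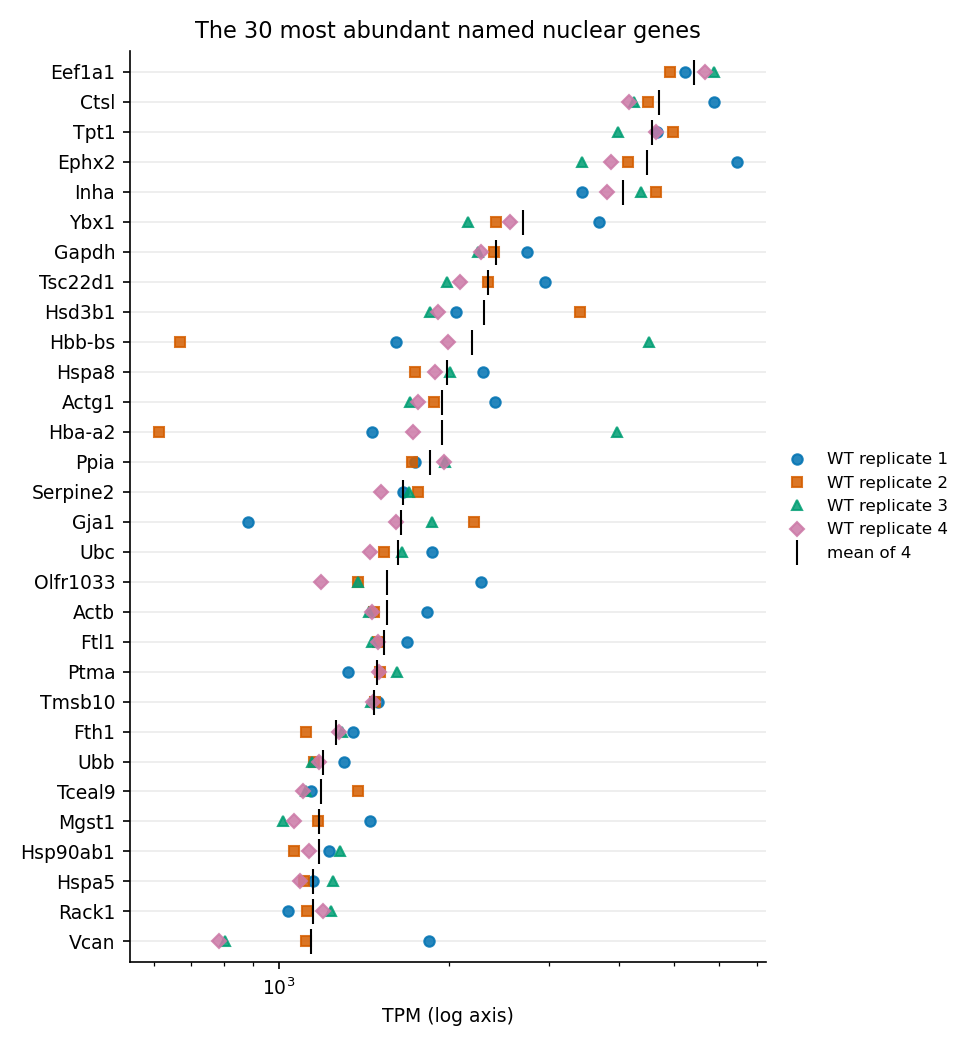
TPM (horizontal log axis) of the 30 most abundant named nuclear genes outside ribosomal proteins, 1 symbol per library and a bar at the mean of 4. Neighbours overlap for most genes, and Hbb-bs, Hba-a2, Gja1 and Vcan show the widest gaps between libraries.

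Genes of steroid synthesis and cholesterol delivery summed to 7101 ± 1471 TPM, or 0.713% of the total. Of 24, 23 were at 1 TPM or more in all 4 libraries, against 56.8% of all protein-coding symbols. Hsd3b1, which makes progesterone from pregnenolone, measured 2060.3, 3401, 1846 and 1913 TPM, and WT replicate 2 lay above the other 3. Fdx1, the ferredoxin that passes electrons to Cyp11a1, measured 1323, 1084, 754 and 825 TPM. Scarb1, the receptor that takes up cholesterol from high-density lipoprotein, measured 779, 594, 607 and 537 TPM, and Soat1, which esterifies cholesterol, 372, 425, 300.3 and 259.5 TPM. Sult1e1, which inactivates oestrogens by sulfation, measured 492, 292, 214 and 252 TPM.

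Oestrogen-making genes showed another order of libraries. Cyp19a1, the aromatase that makes oestrogens, measured 14.6, 72.7, 67.2 and 23.2 TPM, and Hsd17b1, which makes oestradiol from oestrone, 162, 403, 343 and 272 TPM. For both, WT replicate 1 was lowest and WT replicate 2 highest, while over the list WT replicate 1 was the highest for 12 of the 23 measured throughout, against 34.6% of all genes, and WT replicate 2 for 8, against 20.1%. Aromatase had a mean of 44.4 ± 29.8 TPM (SD, n = 4), far below the genes of progesterone synthesis. Akr1c18, which breaks down progesterone, measured 27.6, 26.1, 9.70 and 29.4 TPM, and Hsd17b3, a testosterone-making enzyme of the testis, stayed below 1 TPM in all 4. Of those 23, 7 passed 2-fold between the highest and lowest library, against 8.76% of all 13580 genes.

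All 22 genes of cholesterol synthesis were at 1 TPM or more in every library, against 56.8% of all protein-coding symbols. They summed to 2573 ± 638 TPM. The most abundant was Msmo1, a sterol oxidase, with 763, 482, 399.6 and 466 TPM. Hmgcs1, which makes the precursor of mevalonate, measured 282, 193, 136 and 153 TPM, and Insig1, the sterol-sensing retention protein, 270.0, 171, 161 and 179.7 TPM. WT replicate 1 was the highest library for each of them. It was the highest for 20 of the 22, against 34.6% of all genes at 1 TPM or more in all 4. Only Hsd17b7 and Scap had another highest library.

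Mediators of ovulation and of matrix expansion summed to 2491 ± 792 TPM, and to a mean of 2112 TPM without WT replicate 1. Vcan was the most abundant member, followed by Rgs2, a brake on G-protein signals, at 947, 743, 688 and 665 TPM. Slco2a1, the prostaglandin transporter, measured 126, 81.0, 58.4 and 54.6 TPM, Tnfaip6, a hyaluronan-binding matrix protein, 111, 63.9, 55.3 and 42.8 TPM, and Ptx3, a further organiser of that matrix, 110.1, 50.6, 46.6 and 43.6 TPM. Each of these was highest in WT replicate 1. So were Ptgs2, the inducible prostaglandin synthase, at 43.7, 30.3, 16.3 and 13.3 TPM, and the EGF-like growth factors Ereg at 29.7, 16.5, 14.5 and 10.2, Btc at 44.2, 21.3, 20.8 and 20.2 and Areg at 8.78, 4.70, 7.48 and 4.39 TPM.

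Ptges, the prostaglandin E synthase downstream of Ptgs2, had another order, with 40.4, 58.1, 81.0 and 61.7 TPM, WT replicate 1 lowest and WT replicate 3 highest. Adam17, which sheds EGF-like factors, ranged only from 63.3 to 68.7 TPM. Has2, the hyaluronan synthase, was low at 6.36, 2.48, 2.92 and 2.27 TPM. WT replicate 1 was the highest of 4 for 16 of the 21 members at 1 TPM or more throughout, against 34.6% of all genes, and 14 of the 21 passed 2-fold between libraries, against 8.76%. Their median CV was 36.5%, against 12.2% over all 13580 genes. Of the 24 listed, Hapln1 and Itih3 were below 1 TPM in all 4 libraries.

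Pgr, the progesterone receptor that names the strain, lay at the edge of detection, with 1.56, 0.878, 1.41 and 0.756 TPM and a mean of 1.15 ± 0.395 (SD, n = 4). WT replicates 1 and 3 were above 1 TPM and WT replicates 2 and 4 below it. The table gives 1 value per gene, so the A and B isoforms of the receptor are summed in it. Pgrmc1 and Pgrmc2, membrane proteins that bind progesterone or haem and are unrelated to the receptor, were higher, at 149 ± 8.64 and 45.8 ± 1.87 TPM (SD, n = 4).

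Immediate early genes and other fast transcription factors summed to 1679.6 ± 469.9 TPM. Their leaders were Atf4 at 271, 199.6, 188 and 189, Jund at 223, 174, 152 and 151, Hif1a at 206, 190.0, 140.2 and 137 and Epas1 at 205, 149.6, 134 and 124 TPM. Several immediate early genes, chosen after their values were seen, were high in the same libraries. Fos measured 112, 101, 32.1 and 31.0 TPM, Jun 117, 103, 36.7 and 35.1, Junb 140.4, 110.1, 52.2 and 48.7, Egr1 201, 144, 98.9 and 79.5 and Fosb 10.1, 10.5, 1.26 and 0.885 TPM. WT replicates 1 and 2 were above WT replicates 3 and 4 for all 5. WT replicate 1 was the highest for 20 of the 23 members at 1 TPM or more in all 4 libraries, against 34.6% of all genes, and WT replicate 4 was the lowest for 16, against 26.4% of all genes. Past 2-fold were 11 of the 23, against 8.76% of all genes. Other members had other orders, with 40.8, 44.1, 65.1 and 58.7 TPM for Myc, 53.4, 35.4, 51.6 and 31.3 TPM for Nr4a1, 4.14, 2.62, 3.13 and 2.06 TPM for Egr2 and 1.07, 1.16, 1.55 and 1.13 TPM for Nr4a2.

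**Figure D4:**
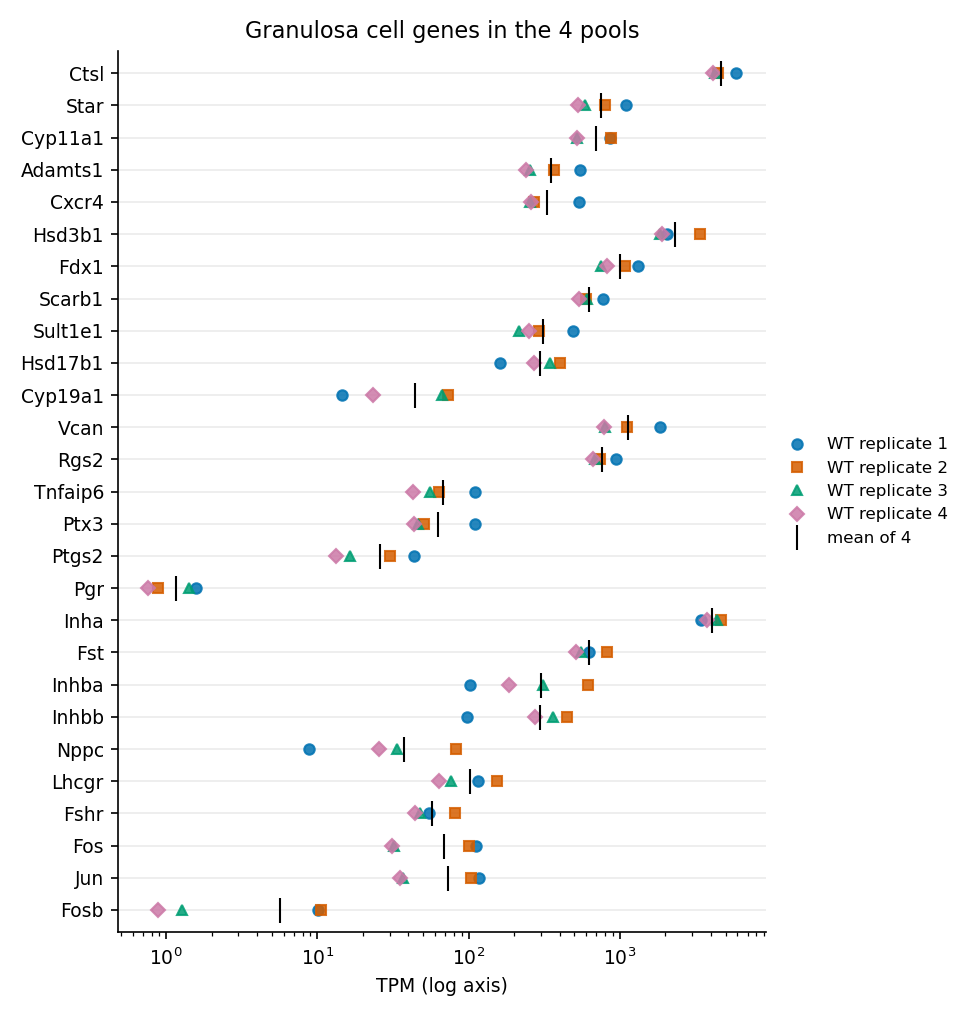
TPM (horizontal log axis) of 27 granulosa cell genes, 1 symbol per library and a bar at the mean of 4. Fos, Jun and Fosb separate WT replicates 1 and 2 from WT replicates 3 and 4, Cyp19a1, Inhba, Inhbb and Nppc have WT replicate 1 at the left and WT replicate 2 at the right, and Pgr lies near 1 TPM.

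The inhibin and activin family was among the most abundant of the signalling groups, at 6082 ± 1040.3 TPM. All 18 members were at 1 TPM or more in all 4 libraries, against 56.8% of all protein-coding symbols. Inha alone made up most of the sum. The beta subunits, which pair with Inha to form inhibins or with each other to form activins, varied widely. Inhba measured 101, 611, 309.6 and 184 TPM and Inhbb 96.9, 446, 363 and 276 TPM, and both were lowest in WT replicate 1 and highest in WT replicate 2. The means were 302 ± 223 and 295 ± 149.6 TPM (SD, n = 4). Fst, follistatin, which binds and blocks activins, measured 626, 823, 550.4 and 514 TPM.

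Receptors and signal carriers of the family were lower. Bmpr2 measured 69.5, 138, 101 and 77.0 TPM and Bmpr1b 49.5, 109.8, 100.2 and 83.0 TPM, both receptors for the oocyte's growth factors. Smad4, the shared partner of the Smad proteins, averaged 60.1 ± 2.02 TPM and Smad2 34.5 ± 3.15 TPM (SD, n = 4). The type II activin receptors Acvr2a and Acvr2b averaged 8.45 and 4.08 TPM. Amh, the anti-Müllerian hormone, measured 194, 147, 361 and 266 TPM and was highest in WT replicate 3, as was its receptor Amhr2 at 98.8, 97.6, 153 and 122 TPM.

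Transcription factors and receptors that define granulosa cells were mostly present at moderate levels. Of 25, 23 were at 1 TPM or more in all 4 libraries, against 56.8% of all protein-coding symbols. Nr5a2, the orphan receptor needed for luteinization, measured 216, 368, 275 and 229.9 TPM, and its relative Nr5a1 83.9, 96.9, 77.0 and 70.3 TPM. Runx2 and Runx1, both induced in follicles near ovulation, measured 267, 154, 119 and 129 and 182, 113, 89.99 and 88.6 TPM and were highest in WT replicate 1. Cebpb, which carries the response to luteinizing hormone, measured 181, 117, 107 and 123 TPM. Gata4 measured 79.1, 97.7, 106 and 83.9, Foxl2 37.0, 56.0, 60.4 and 50.3 and Esr2, the main oestrogen receptor of granulosa cells, 49.7, 98.5, 107 and 92.7 TPM. Lhcgr, the receptor that hCG binds, measured 116, 153, 76.0 and 63.4 TPM and Fshr, the receptor for follicle-stimulating hormone, 54.9, 81.4, 48.0 and 44.4 TPM, both highest in WT replicate 2. The testis factors Sox9 and Dmrt1 were below 1 TPM in all 4 libraries.

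Among proteases and their inhibitors, 22 of 25 were at 1 TPM or more in all 4 libraries, against 56.8% of all protein-coding symbols. Ctsl outweighed the rest. Serpine2, an inhibitor of plasminogen activators, measured 1658, 1764, 1695 and 1516 TPM with a CV of 6.30%. Timp1, which blocks metalloproteinases, measured 403, 271, 199 and 251 TPM, and Cst3, a cysteine protease inhibitor, 263, 290.0, 394 and 333 TPM. Mmp11 averaged 205 ± 39.2 TPM, while A2m and Mmp9 were below 1 TPM in all 4 libraries.

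Structural, metabolic and folding genes were abundant, with median CVs by list of 6.92% to 12.4%. The 24 cytoskeletal genes summed to 14890.4 ± 1882 TPM, with Actg1 at 2412, 1884, 1704 and 1763 and Actb at 1830.2, 1475, 1440.3 and 1459.9 TPM. WT replicate 1 was the highest for 18 of the 24, against 34.6% of all genes. WT replicate 3 was the lowest for 14, against 12.4% of all genes. Myl6, a myosin light chain, ranged only from 788 to 811 TPM. The 17 glycolytic genes summed to 6322 ± 341 TPM, with a median CV of 6.92%. None passed 2-fold, against 8.76% of all genes and 4.72% of those between 100 and 1000 TPM. In a list of 17 this does not set them apart. The 25 chaperone genes summed to 13049 ± 559.8 TPM, led by Hspa8 at 1981, Ppia at 1846, Hsp90ab1 at 1175 and Hspa5 at 1148 TPM. Genes of redox, iron and metal binding summed to 10180.1 ± 1166 TPM over 22 genes. Their least steady members were the metallothioneins, with 1549, 907, 724 and 803 TPM for Mt2 and 1177, 737, 666 and 721 for Mt1, both highest in WT replicate 1.

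Genes of lipid handling were led by Scd2, a fatty acid desaturase, at 666 ± 84.2 TPM, and Dbi, an acyl-CoA-binding protein, at 431 ± 72.5 TPM (SD, n = 4). Lrp8, a lipoprotein receptor, measured 168, 97.1, 83.3 and 82.5 TPM. Apob and Abcg1 were below 1 TPM in all 4 libraries. Of the adhesion genes, all 24 were at 1 TPM or more throughout, against 56.8% of all protein-coding symbols. Sdc1, a cell-surface proteoglycan, measured 813, 519, 494 and 546 TPM, and Ctnnb1, beta-catenin, ranged from 355 to 365 TPM, a CV of 1.23%. All 22 genes of the proliferation list were at 1 TPM or more in every library, against 56.8% of all protein-coding symbols. They summed to 1491 ± 96.1 TPM. The list also holds the cell cycle inhibitors Cdkn1a and Cdkn1b, at 49.8 and 58.2 TPM on average, so its sum mixes both kinds. The mitotic kinase Cdk1 averaged 154 ± 7.18, the replication clamp Pcna 154 ± 14.3 and the topoisomerase Top2a 128 ± 8.16 TPM (SD, n = 4). WT replicate 3 was the highest and WT replicate 2 the lowest for 13 of the 22 each, against 32.8% and 33.0% of all genes.

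Among long noncoding RNAs, the listed ones were modest, with Gas5 at 317, 390.2, 434 and 408 TPM and Meg3 at 139, 135, 90.2 and 69.2 TPM. Malat1 averaged 60.9 ± 16.9 TPM (SD, n = 4), and Kcnq1ot1 was below 1 TPM in all 4 libraries. Far above them, and chosen for their level after it was seen, stood 2 genes without a name. Gm20186 on chromosome 6 (18845910 to 18848207, minus strand) measured 8436, 5804, 4888 and 4224 TPM, and Gm12840 on chromosome 4 (117700188 to 117700923, plus strand) 4977, 3610.5, 3101 and 2723 TPM, coordinates from GENCODE M21 on mm10. They share a stretch of 215 bases at 99.1% identity, so reads from it cannot be assigned to either. A longer stretch of Gm20186, 548 of the 741 bases searched, matches another gene, Gm26809, at 100% identity, and its TPM is uncertain for that reason too. Both were highest in WT replicate 1.

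Markers of other ovarian and blood cells were present at levels that differed widely between cell types. In bulk RNA, fewer cells of a type and less RNA per cell cannot be told apart. Oocyte genes were clear in every library, with 15 of 15 measured markers at 1 TPM or more, against 56.8% of all protein-coding symbols. Their sums were 1002, 691, 1283 and 1253 TPM. Gdf9, the oocyte growth factor, measured 191, 132, 249 and 246 TPM, and Zp3, a coat protein of the oocyte, 114, 68.6, 143 and 138 TPM. WT replicate 2 was the lowest for 15 of the 15, against 33.0% of all genes. The 7 genes listed as cumulus markers summed to 750, 887, 895 and 704 TPM, and their orders of libraries differed. Among them Slc38a3, an amino acid transporter, measured 47.6, 55.8, 132 and 94.4 TPM. Nppc, also on that list although mainly mural cells make it to hold the oocyte in arrest, measured 8.83, 82.5, 33.8 and 25.5 TPM.

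Erythroid genes summed to 4160, 1733, 11371 and 4955 TPM, with a CV of 74.03%. Hbb-bs measured 1611, 669, 4507 and 1992 TPM and Hba-a2 1461, 613, 3955 and 1727 TPM. WT replicate 3 was highest and WT replicate 2 lowest for 5 of the 5 at 1 TPM or more, against 32.8% and 33.0% of all genes. Alas2, the first enzyme of haem synthesis in red cells, measured 10.6, 5.03, 30.8 and 12.7 TPM, while Slc4a1, the anion exchanger of the red cell membrane, and the nuclear factor Hemgn were below 1 TPM in all 4 libraries. Hba-a1 and Hba-a2 share most of their sequence and were listed in a nearly fixed ratio, so their sum, 3035 TPM on average, is the safer value. The part of blood in the other values was not tested.

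Theca genes were mixed. Cyp17a1, the androgen-making enzyme of theca cells, measured 6.22, 15.2, 14.0 and 11.5 TPM, Insl3, a theca hormone, 2.43, 3.22, 2.29 and 1.74 TPM and Gli1 0.948, 0.810, 1.00 and 0.947 TPM. Mgarp, which steroidogenic cells in general express, averaged 283 ± 14.3 TPM, and Aldh1a1 measured 58.0, 212, 77.5 and 71.2 TPM. Fibroblast markers summed to 216 to 248 TPM, led by Mgp at 121 ± 14.7. Smooth muscle markers summed to 88.8 to 139 TPM, led by Acta2. Of 13 endothelial markers, Lyve1 alone held most of the 160 to 315 TPM, at 267, 161, 155 and 127, while Pecam1 averaged 4.55 and Kdr 2.54 TPM. Macrophage markers summed to 99.5 to 142 TPM with Lyz2 at 57.8. Neutrophil markers summed to 8.53 to 34.6 TPM and T and NK cell markers to 9.54 to 14.4 TPM. The receptor genes of T cells, Cd3d, Cd3e and Cd3g, were at or under 0.195 TPM, and surface epithelium markers summed to 90.7 to 128 TPM.

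In total, 13580 of 51886 symbols were at 1 TPM or more in all 4 libraries, 15763 in at least 1, and 20516 were listed at 0 in all 4. Single libraries held 14453 to 14812. Protein-coding genes were 12308 of the 13580 and held 71.0% ± 1.85 of TPM (SD, n = 4), with 698 long noncoding RNAs at 1.89% and 320 pseudogenes at 3.98%. These 12308 were 56.8% of the 21666 protein-coding symbols listed. Just inside the threshold lay B3gnt8, Carmil2 and Slc29a4, whose lowest libraries measured 1.006, 1.001 and 1.004 TPM. Just outside lay Spic, Slc2a13 and Cldn5, at 0.9981, 0.9993 and 0.9981 TPM. Over the autosomes the share of protein-coding genes detected this way had a median of 59.1%, against 48.1% on the X chromosome. The X lay within the autosomal range, as chromosomes 7 and 14 were at 48.0% and 46.5%. The median level of detected X-linked genes was 0.823, 0.956, 0.855 and 0.860 of the autosomal median in the 4 libraries, highest in WT replicate 2.

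The spread between pools was small for most genes. The median CV was 12.2%, with quartiles of 7.77% and 20.2%, and 5262 of 13580 genes (38.7%) had a CV under 10%. Low genes varied more, with a median CV of 18.2% between 1 and 10 TPM, 10.2% between 10 and 100, 9.19% between 100 and 1000 and 13.1% between 1000 and 10000. Past 2-fold between the highest and lowest library were 1190 genes, or 8.76%, and past 5-fold 55. The share past 2-fold was 4.56% without WT replicate 1, 5.49% without WT replicate 2 and 0.979% without both, where the median CV was 5.97%. Fewer libraries narrow the range by construction. Over 1.5-fold above each of the other 3 libraries were 330 genes in WT replicate 1, 182 in WT replicate 2, 58 in WT replicate 3 and 68 in WT replicate 4.

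Genes with a mean of 50 TPM or more and the highest CV were of few kinds. Mro, known from the developing testis and also listed as a cumulus marker, measured 16.2, 213, 46.6 and 34.0 TPM. Cst8, a cystatin, measured 35.6, 113, 29.6 and 25.4 TPM and Slc26a7, an anion transporter, 56.2, 207, 81.2 and 67.8 TPM. Aldh1a1 and Tmsb15b2 joined them, with 105 and 116 TPM on average. For these 5, WT replicate 2 was far above the rest. The other 5 were Inhba and the haemoglobin genes Hbb-bs, Hba-a1, Hba-a2 and Hbb-bt. The 10 steadiest were Cops5, Sdhd, Rer1, Tmx2, Ei24, Eloc, Nsmce4a, Zcrb1, Psma4 and Tmem50a. Cops5, a subunit of the COP9 signalosome, ranged from 92.0 to 93.6 TPM, a CV of 0.786%, and Psma4, a proteasome subunit, from 199 to 205 TPM.

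**Figure D5:**
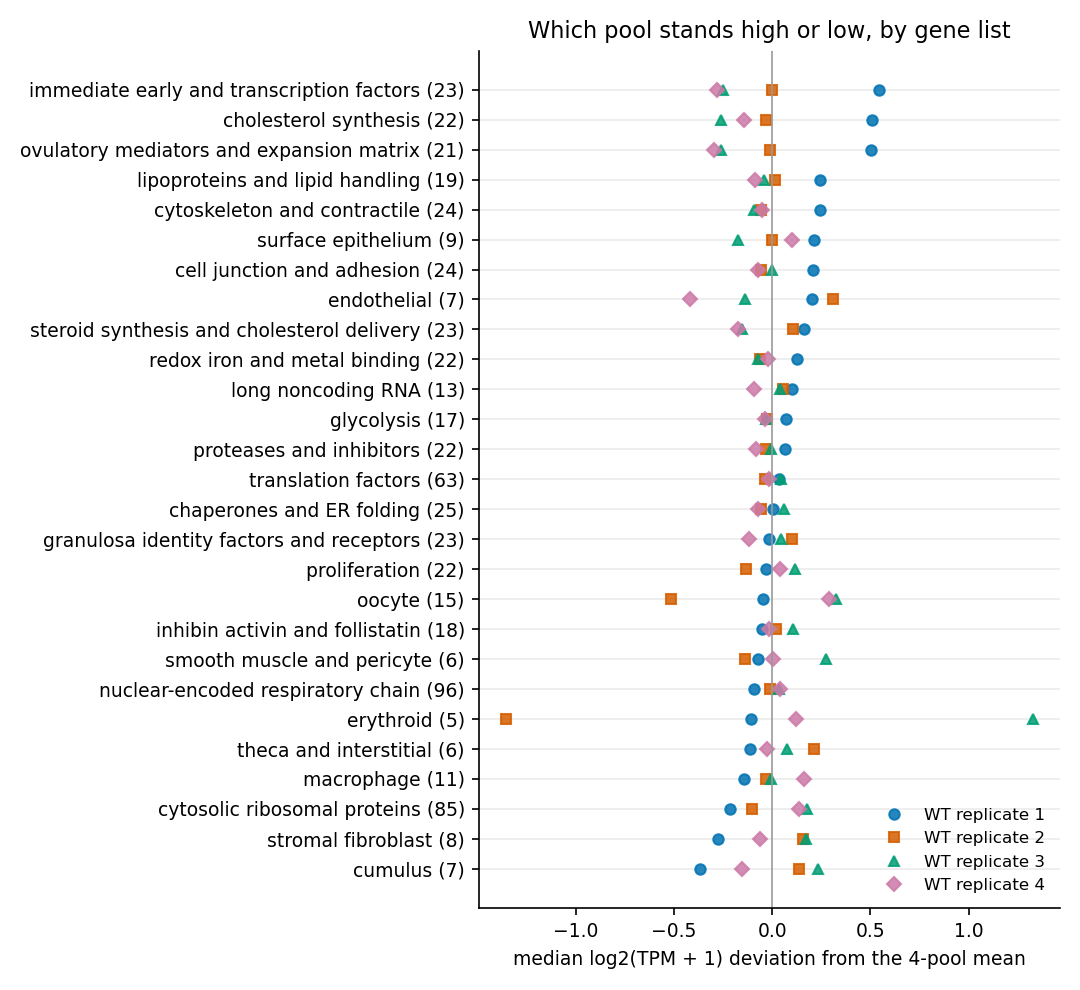
Median over list members of log2(TPM + 1) in each library minus that gene's mean over the 4 libraries (horizontal axis), by list, with the number of members at 1 TPM or more in all 4 libraries in brackets. WT replicate 1 lies furthest right for the immediate early, cholesterol synthesis and ovulatory lists, at 0.54, 0.51 and 0.50, and the erythroid list spreads from -1.36 in WT replicate 2 to 1.33 in WT replicate 3.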

How the data were processed

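Poly(A) RNA of granulosa cells was measured in 4 wild-type pools. The authors deposited 1 table of TPM for 51886 gene symbols. FastQC, Salmon, limma, edgeR and mm10 are listed, with no role or version, in the submitters' processing notes. How transcripts were summed to genes, and with which annotation, is not given in the sources used here. TPM divides by transcript length and sums to a fixed total, so a change in an abundant class shifts all other values, and short genes gain weight. No value column lacked a sample.

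Groups and replicate numbers came from the sample titles. No comparison between groups was made, and the only test was Dixon's ratio for a library far from the other 3. Each value is given per library with mean, SD and CV, computed in Python 3.11.15 with pandas 2.3.3 and numpy 2.4.6. Genes were counted as detected at 1 TPM or more in all 4 libraries, log values used a pseudocount of 1, and figures were drawn with matplotlib 3.10.9. Symbols were matched to GENCODE M21 on mm10 for 95.2% of the table, and 20876 symbols to RefSeq promoters of GRCm38.p6. Shared sequence was searched with BLASTN 2.17.0 at 98% identity over at least 100 bases. Protein length was not analysed here. The spread summaries were also run on simulated data in which genes varied independently. That run checks the computation only and lends no support to the spread values.

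The genes named were the 5 markers, the 30 most abundant named nuclear genes, mitochondrial genes, the 3 leading ribosomal protein genes, the 8 most abundant members of each list and those below 1 TPM, the 4 most abundant markers of each other cell type, the 10 highest and 10 lowest CVs at a mean of 50 TPM or more, and the 3 genes on either side of the threshold. Pseudogenes, Gm numbers and Rik names were left out of these choices, and a few genes that the rules select are not reported here. Other genes named (such as Fos, Jun, Cyp19a1, Nppc, Has2, Gm20186 and the copies) were chosen after their values were seen. The lists and members were chosen with earlier results of these data known. Alternatives covered mitochondrial genes left out, other thresholds, filters and pseudocounts, TMM factors and quantile normalization computed on TPM, each replicate left out, and length weighting, counting of pseudogenes with their parents and omission of WT replicates 1 and 2, the last 3 chosen after the data were seen.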

Additional observations from a re-analysis of the deposited data

Results flagged for a closer look

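For each of 223 named genes with a mean of 1 TPM or more and 25 gene classes, the gap between the highest or lowest library and its neighbour was set against the whole range (Dixon's ratio at its 95% critical value for 4 libraries). A flag of this kind comes by chance for about 1 in 20 groups, or 12.4 of 248, and 27 were found, 24 for genes and 3 for classes. Some of the genes were named for a high CV or after their values were seen, and genes and classes overlap and vary together. The number found can therefore not be read as an excess over chance, and the flags are a description. Most of them concern WT replicates 1 and 2.

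WT replicate 1 stood above the other 3 libraries for 10 genes. These were Actb at 1830.2 TPM, Ftl1 at 1681, Mt1 at 1177, Sdc1 at 813, Pkm at 492, Cxcr4 at 539, Atf4 at 271, Lrp8 at 168, Ptx3 at 110.1 and Sphk1 at 76.1 TPM. For Cxcr4 the other 3 lay between 254 and 271 TPM, and for Ptx3 between 43.6 and 50.6 TPM. It also stood above them for 3 classes, the cytoskeletal genes with 1.77% of TPM, redox, iron and metal-binding genes with 1.20% and glycolytic genes with 0.686%. Snhg1, a long noncoding RNA that hosts small nucleolar RNAs, was low there at 129 TPM.

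WT replicate 2 stood above the rest for 9 genes. These were Hsd3b1 at 3401 TPM, Tceal9 at 1379, Tmsb15b2 at 235, Aldh1a1 at 212, Slc26a7 at 207, Mro at 213, Cst8 at 113, Egfl7 at 15.5 and mt-Te at 6.83 TPM, the last listed at 0 in the other 3 libraries. Equal values in those libraries put the ratio for mt-Te at its maximum by construction. Tmsb15b2, Aldh1a1, Slc26a7, Mro and Cst8 had been named for their high CV. For Hsd3b1 the others lay between 1846 and 2060.3 TPM. Ube2c, a ubiquitin-conjugating enzyme of mitosis, was low there at 114 TPM.

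In WT replicate 3, Adam17 was high at 68.7 TPM, although the whole range of this gene was narrow, and Ltf, lactoferrin, was low at 1.04 TPM. In WT replicate 4, S100a8, a neutrophil protein, was high at 10.1 TPM, with the others between 0.785 and 1.41 TPM.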

How the results depend on the processing

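Values were recomputed under 174 alternatives in all, of which 97 concern the main summaries. Of these, 72 stayed within the limit set for their kind. The limit was 1 SD between libraries for shares and 1 SD between the values with 1 library left out for the summaries of spread. It was 1.5 times for the count of detected genes and the exact 95% binomial interval for promoter shares. With 4 libraries, leaving 1 out shifts a mean by less than 1 SD, so for shares that outcome was all but fixed in advance. The count of 72 is therefore not a measure of stability. Leaving out mitochondrially encoded genes moved the top 10, 100 and 1000 shares to 6.39%, 23.9% and 57.4%, the number of genes for 50% of TPM to 619.5 on average, the ribosomal protein share to 12.7% and the nuclear respiratory chain share to 2.53%. Weighting by length gave 13.1% for mitochondrial genes, 5.59% for ribosomal proteins and 1.10% for the respiratory chain, and counting copies with their parents 11.2% for ribosomal proteins. The 6 moved values among single genes and list sums (such as Ctsl and Cyp11a1) also came from leaving out mitochondrial genes, which rescales all others. Thresholds of 0.5 and 5 TPM gave 15049 and 10337 genes.

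The spread depended on the filter. At 5 TPM the median CV was 10.5% and 4.02% of genes passed 2-fold, and with no filter 31.4% and 33.2%, with a median SD of log2(TPM + 1) of 0.11 in place of 0.16. A pseudocount of 5 gave 0.12. Leaving out 1 library gave median CVs of 9.54% (without WT replicate 1) to 12.8%, SDs of 0.12 to 0.17 and 4.56% to 7.23% of genes past 2-fold, where fewer libraries narrow the range by construction. Without WT replicates 1 and 2 the values were 5.97%, 0.079 and 0.979%. Leave-one-out ranges were 21.6% to 22.8% for the top 10, 39.1% to 40.4% for the top 100, 66.5% to 67.2% for the top 1000, 231 to 253 genes for 50% of TPM, 22.0% to 23.1% for mitochondrial genes, 9.45% to 10.3% for ribosomal proteins and 1.94% to 1.99% for the respiratory chain, and 13670 to 13794 detected genes.

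No paired analysis was possible because the results come from 1 group and from no test. Limits are the unknown depth, pools in place of single mice, 4 libraries, and gene copies that share reads. An exact 0 can be a failed estimate.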

Other observations

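Some loci outside the lists drew attention by their level, as values only. Gm47283, annotated on the Y chromosome (90784738 to 90816464, plus strand, mm10), measured 735, 346, 324 and 275 TPM, although the cells come from ovaries. It was 1 of 2 Y-annotated symbols, of 1163, at 1 TPM or more in all 4 libraries. It lies at the end of that chromosome which also exists on the X. Whether the reads come from the X copy was not tested.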
